A study of Homo sapiens with 6 samples.

Results

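Aldehyde dehydrogenases and aldo-keto reductases were compared between C28, a human chondrocyte line that the labels give as the control, and JJ012, a human chondrosarcoma line. The set holds 10 genes, which are the aldehyde dehydrogenases ALDH1A1, ALDH1A3, ALDH1B1, ALDH2, ALDH3A2 and ALDH7A1 and the aldo-keto reductases AKR1B1, AKR1B10, AKR1C1 and AKR1C3. They were chosen by name, out of 20046 genes with a symbol of their own on the array, and every probe with a member's symbol was taken. The members had 15 of the 47231 probes, over 9 of the 10 genes, and AKR1B1 was not analysed here. A probe counted as measured when its detection value, a fraction near 1 for bright probes, was above 0.99 on all 3 arrays of at least 1 line. This kept 12 of the 15 probes and 7 of the 10 genes (5 of 6 aldehyde dehydrogenases and 2 of 4 aldo-keto reductases), beside 19384 probes and 11515 genes in all.

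Aldehyde dehydrogenases oxidise aldehydes to carboxylic acids with NAD or NADP, while aldo-keto reductases mostly work the other way, reducing aldehydes and ketones to alcohols with NADPH. The reactive aldehydes that both families clear come from lipid peroxidation, alcohol, amino acids and sugars. Some members also make or remove signals: retinaldehyde is oxidised to retinoic acid by ALDH1A enzymes or reduced to retinol by AKR1B10, and AKR1C enzymes reduce steroids and prostaglandins. Retinoic acid is a regulator of cartilage and of chondrocyte differentiation.

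Total RNA of each line was measured on 3 Illumina arrays. Both lines were seeded at 5000000 cells in a dish and kept in culture for 24 h with no added agent named, so the lines differ in origin and share the handling. Each group is 1 established line, so a property of a line and a property of chondrosarcoma or of chondrocytes cannot be told apart. Whether the 3 arrays of a line stem from different cultures is not stated in the labels, so the p-values cover only the variation among these arrays, and that may be technical. The RNA is that of whole cultures, in which fewer cells of a type and less RNA per cell cannot be told apart.

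Arrays of a line correlated at 0.994 to 0.996 in C28 and 0.986 to 0.992 in JJ012, and arrays of different lines at 0.891 to 0.907. These are correlations of log2 signals over probes detected on all 6 arrays, so probes off in a line are left out. Between 17826 and 19332 probes were detected per array, and the median raw intensity lay between 84.4 and 101.6. The chondrocyte identity of C28 rests on few markers. Of 8 cartilage markers, SOX9 and MATN3 were detected on all 3 C28 arrays, and ACAN, COL9A1, COL11A2, COMP and HAPLN1 on no array. COL2A1 was detected on 1 C28 array and on no JJ012 array. The JJ012 arrays also differed among themselves in a way that touches the low values below. Of probes outside the set, 44 had an intensity of at least 1000 on every C28 array and a detection value under 0.9 on JJ012 replicate 2. Their signal on JJ012 replicate 1 was 10.4% of the C28 mean (median; its 10th and 90th percentiles were 8.88 and 12.2%), and all 44 were detected. On replicate 3 it was 2.03% (1.36 to 2.88%), with 21 detected, and on replicate 2, where the choice of probes keeps it low, 0.624% (0.386 to 1.09%).

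Promoter windows of the called members ALDH1A3, ALDH7A1 and AKR1C3 are shown, with those of a near-identical pair in the AKR1C cluster. The called members ALDH2 and AKR1B10 had no window. The windows are the 250 bases before each gene's start, 5′ to 3′ on the gene's strand, from RefSeq on GRCh38.p14. The table held 11 windows for 8 of the members. The window of ALDH1A3 (chr15:100879581-100879830, + strand) had a GC content of 82.4% and an observed over expected CpG ratio of 0.90, against medians of 58% and 0.56 over all 35116 windows. It held 6 matches of the GC box GGGCGG, and that of ALDH7A1 (chr5:126595220-126595469, − strand, GC 64%) held 3. These are the 2 genes called lower with a window in the table, and capitals mark the GC box on either strand, where matches can overlap.
ALDH1A3: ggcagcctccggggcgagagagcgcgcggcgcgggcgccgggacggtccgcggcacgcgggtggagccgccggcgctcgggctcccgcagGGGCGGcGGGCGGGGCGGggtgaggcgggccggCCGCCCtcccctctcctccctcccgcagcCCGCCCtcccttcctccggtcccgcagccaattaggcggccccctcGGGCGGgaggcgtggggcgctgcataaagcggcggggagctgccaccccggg
ALDH7A1: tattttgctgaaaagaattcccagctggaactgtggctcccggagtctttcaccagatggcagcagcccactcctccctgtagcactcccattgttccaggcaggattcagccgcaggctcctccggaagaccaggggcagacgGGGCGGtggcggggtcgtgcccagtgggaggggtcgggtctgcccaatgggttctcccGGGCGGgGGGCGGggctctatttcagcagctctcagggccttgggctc

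The AKR1C windows were poor in GC. The first of the 2 AKR1C3 windows (chr10:5048531-5048780, + strand) had a GC content of 32% and a CpG ratio of 0.00, with 1 match of TATAAA at −26 from the start. The match is on the strand opposite the gene, so it stands in the window as TTTATA, shown in capitals. AKR1C1 (chr10:4963165-4963414, + strand) and its neighbour AKR1C2 (chr10:5003858-5004107, − strand), which is no member, had GC contents of 40.8% and 40% and no match of a searched motif. They are shown because 245 of their 246 aligned bases (99.6%) were identical, against 189 of 252 (75%) between AKR1C1 and AKR1C3.
AKR1C3: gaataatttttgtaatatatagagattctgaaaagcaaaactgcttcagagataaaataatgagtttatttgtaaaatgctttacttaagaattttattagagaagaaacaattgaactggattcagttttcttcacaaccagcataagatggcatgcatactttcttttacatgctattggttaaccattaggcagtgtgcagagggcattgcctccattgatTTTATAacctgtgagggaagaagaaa
AKR1C1: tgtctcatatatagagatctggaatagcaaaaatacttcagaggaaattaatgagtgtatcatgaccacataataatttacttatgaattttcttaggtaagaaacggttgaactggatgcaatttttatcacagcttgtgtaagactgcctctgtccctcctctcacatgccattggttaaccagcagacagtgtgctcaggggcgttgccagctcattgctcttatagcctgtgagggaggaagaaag
AKR1C2: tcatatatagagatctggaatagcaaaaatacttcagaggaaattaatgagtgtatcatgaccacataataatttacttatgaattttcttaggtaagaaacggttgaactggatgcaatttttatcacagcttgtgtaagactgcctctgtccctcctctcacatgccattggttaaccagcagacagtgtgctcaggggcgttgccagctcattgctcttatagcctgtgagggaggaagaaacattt

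Over the 11 member windows, GGGCGG was in 6 (42.6% of all windows) and TATAAA in 1 (10.7% of all windows), on either strand. The core of the antioxidant response element, TGACNNNGC, was in 0 of the 11 and in 10.9% of all windows. None of the 11 is a window of AKR1B10 or ALDH2. A match is a description of the letters, and its absence says only that these letters are not in this window.

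In JJ012, 3 of the 7 measured members were lower than in C28, 2 were higher and 2 did not pass. Called means an adjusted p under 0.05 (limma, Benjamini-Hochberg over all 19384 probes) with at least a 2-fold difference. ALDH1A3, ALDH2 and ALDH7A1 were lower, AKR1B10 and AKR1C3 were higher, and ALDH1B1 and ALDH3A2 were not called. Thus both measured aldo-keto reductases were higher, and each member that was lower was an aldehyde dehydrogenase. AKR1B10 passed the filter through JJ012 alone, and ALDH1A3 and ALDH2 through C28 alone, so their direction follows from the filter. Among members detected on all 6 arrays, 1 gene was called higher (AKR1C3) and 1 lower (ALDH7A1). Over all 11515 genes, 31.3% were called, 13.7% higher and 17.6% lower. By probe, 2 of the 12 member probes were higher and 5 lower, beside 29.8% of all probes called, 13.9% higher and 15.9% lower (2698 and 3088 probes, or 2147 and 3851 with arrays scaled by their medians). The 2 lines did not overlap in 10 of the 12 member probes, beside 74.2% of all measured probes. The median log2 fold change was 0.17 over the 7 members and −0.04 over all genes (−0.03 with genes off in 1 line set to the bound of their fold). Levels are normalized log2 signals, and each probe is compared only with itself. A level below 5.73 is under the dimmest detected probe of at least 1 array.

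**Figure D1:**
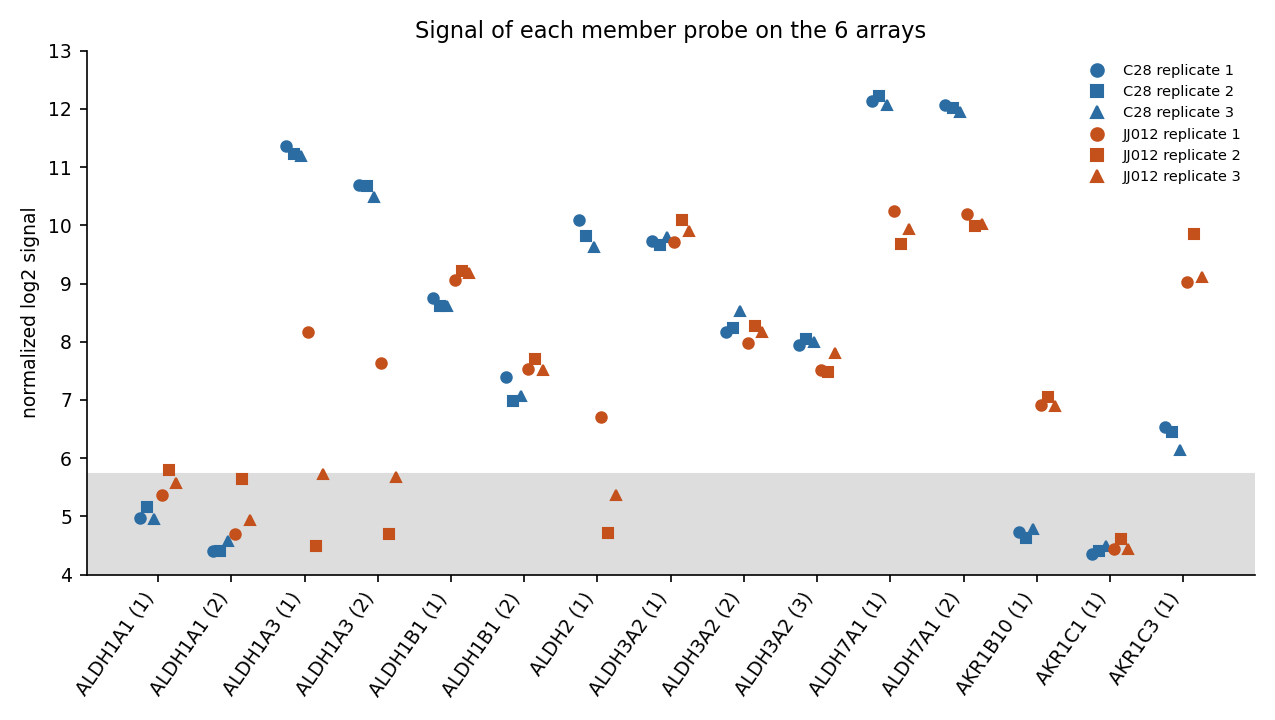
Normalized log2 signal of each member probe (x axis, with a gene's probes numbered from the brightest) on the 6 arrays, 1 point per array, with a grey band below 5.73 where probes are at or near background. The JJ012 arrays lie below C28 for ALDH1A3, ALDH2 and ALDH7A1 and above for AKR1B10 and AKR1C3, and the JJ012 points of ALDH1A3 spread from 4.49 to 8.16.

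ALDH1A3, which oxidises retinaldehyde to retinoic acid, was the member with the largest difference and fell to background on 1 JJ012 array. Its brighter probe, ILMN_2139970, read 11.37, 11.23 and 11.19 in C28 and 8.16, 4.49 and 5.73 in JJ012 replicates 1 to 3. The C28 arrays were bright and close together, and every JJ012 array was far below them, with replicate 1 well above both others. The means were 11.26 ± 0.09 and 6.13 ± 1.87 (SD, n = 3 each), so the log2 fold change was −5.14 (SE 0.77, 95% interval −6.92 to −3.35, limma adjusted p = 0.000479). Replicate 2 was undetected, and with it at the dimmest detected signal of its array the mean of ALDH1A3 was at least 26.4-fold lower. Here and below, such a bound allows for the detection limit alone, not for the spread among arrays or the processing. Without background correction the log2 fold change of ALDH1A3 was −3.98, a smaller difference than the bound. Only 3 of the 11515 genes had a larger fitted decrease. The other probe, ILMN_1807439, read 10.69, 10.67 and 10.49 in C28 and 7.63, 4.69 and 5.68 in JJ012, and its log2 fold change was −4.62 (SE 0.62, limma adjusted p = 0.000254). Both probes thus gave the same direction and the same order of the JJ012 arrays.

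The size of the ALDH1A3 difference depends on the JJ012 array. After subtracting background, the brighter probe kept 11% of its C28 mean on the first JJ012 replicate, 0.264% on the second and 1.52% on the third, and the other 11.7%, 0.626% and 2.27%. On replicates 1 and 3 these shares lie inside the 10th to 90th percentiles of the 44 other probes described above. On replicate 2 neither probe was detected, and with it as the lone JJ012 array ALDH1A3 was at least 46.2-fold lower by its brighter probe (the lone array is assumed to vary like C28). Without JJ012 replicate 1 the log2 fold change was −6.15, and without replicate 2 it was −4.32. What the signal on replicates 1 and 3 comes from was not tested.

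The second retinaldehyde dehydrogenase among the members, ALDH1A1, a common marker of stem-like tumour cells, was close to background in both lines. Its brighter probe read 4.98, 5.17 and 4.96 in C28 and 5.37, 5.79 and 5.57 in JJ012, and the other read 4.41, 4.41 and 4.57 against 4.69, 5.64 and 4.93. The JJ012 values were above the C28 values for both probes, but only the brighter probe on JJ012 replicate 2 was detected. With detection values of 0.977, 0.992 and 0.9896 in JJ012, the brighter probe fell just outside the limit for measured probes. ALDH1A1 was therefore not tested.

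ALDH2, the mitochondrial enzyme that clears acetaldehyde after alcohol intake, was at least 14.2-fold lower in JJ012, where 1 of 3 arrays detected it. The bound sets each undetected JJ012 array at the higher of its dimmest detected signal and the probe's own. Its single probe read 10.10, 9.82 and 9.63 in C28 and 6.71, 4.72 and 5.37 in JJ012. All JJ012 arrays were below all C28 arrays, and only replicate 1 was detected. The means of 9.85 ± 0.23 and 5.60 ± 1.02 (SD, n = 3 each) gave a fitted log2 fold change of −4.25, which takes the undetected arrays at their own values (SE 0.44, 95% interval −5.26 to −3.24, limma adjusted p = 5.5e-05). As shares of the C28 mean, JJ012 held 9.71%, 1.12% and 2.77%, in the same array order as ALDH1A3, with replicates 1 and 3 again inside the percentiles of the 44 other probes. Without JJ012 replicate 1, ALDH2 was at least 18-fold lower, with a fitted log2 fold change of −4.81, and without replicate 2 the fitted value was −3.81.

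**Figure D2:**
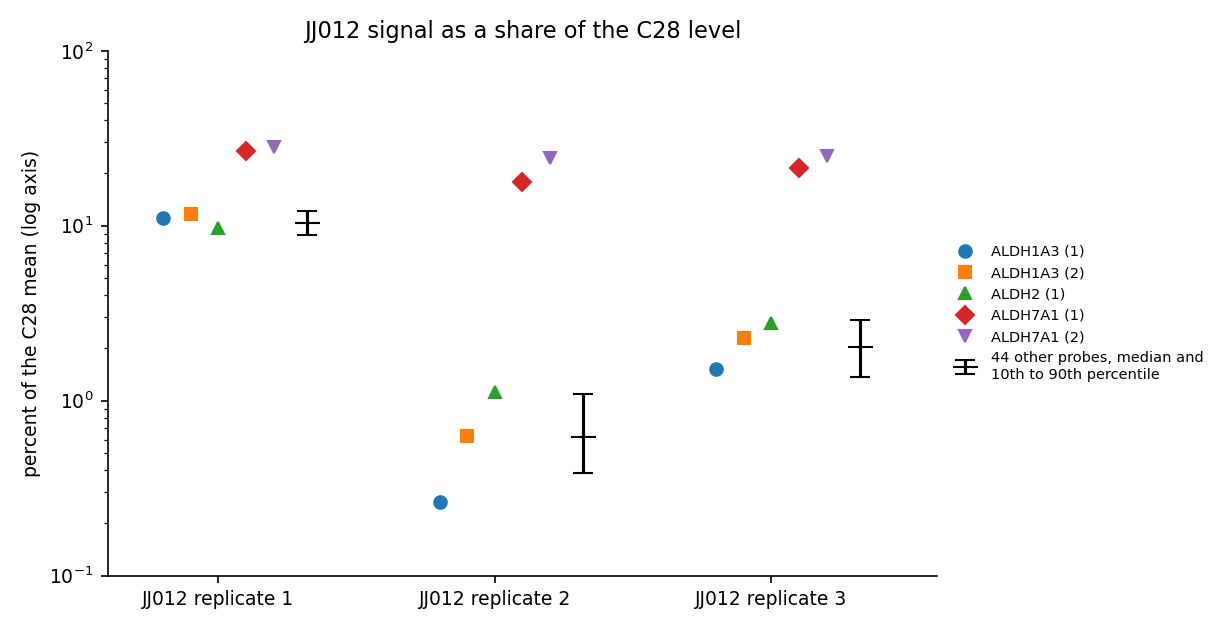
Background-corrected signal on each JJ012 array (x axis) as a percent of the C28 mean (y axis, log scale), for the probes of the 3 members called lower and for 44 other probes with high C28 signal and none on replicate 2 of JJ012 (median with 10th to 90th percentile). ALDH1A3 and ALDH2 lie with the 44 probes at about 10.4% on replicate 1, while ALDH7A1 stays between 17.8 and 28% on all arrays.

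ALDH7A1, known as antiquitin, oxidises an intermediate of lysine breakdown and also betaine aldehyde, and it fell in JJ012 without leaving the detected range. Its brighter probe, ILMN_1763461, read 12.13, 12.22 and 12.07 in C28 and 10.24, 9.68 and 9.93 in JJ012. All 3 JJ012 arrays were clearly detected and lay close together below C28. The means of 12.14 ± 0.08 and 9.95 ± 0.28 (SD, n = 3 each) gave a log2 fold change of −2.19 (SE 0.15, 95% interval −2.53 to −1.85, limma adjusted p = 6.19e-06), or 4.56-fold lower. The other probe, ILMN_1687508, read 12.07, 12.02 and 11.94 against 10.19, 9.99 and 10.03, with a log2 fold change of −1.94 (SE 0.10, limma adjusted p = 1.75e-06). As shares of the C28 mean the brighter probe held 26.6%, 17.8% and 21.3%, and the other 28%, 24.4% and 25.1%. These lie above the 90th percentile of the 44 other probes on each array. On replicate 2 this follows from the choice of the 44 for low detection there. Both probes had the array order of ALDH1A3, with replicate 1 highest and replicate 2 lowest.

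ALDH1B1, a mitochondrial relative of ALDH2, was slightly brighter in JJ012 and was not called. Its probes gave log2 fold changes of 0.50 (SE 0.10, 95% interval 0.27 to 0.72, limma adjusted p = 0.00216) and 0.44 (SE 0.13, limma adjusted p = 0.0165), both under 2-fold. The brighter read 8.75, 8.61 and 8.62 in C28 and 9.06, 9.22 and 9.19 in JJ012, and the dimmer 7.40, 6.99 and 7.07 against 7.54, 7.71 and 7.52. The lines did not overlap in either probe, although the difference was small beside that of ALDH2.

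ALDH3A2, which oxidises fatty aldehydes in the endoplasmic reticulum and is lost in Sjögren-Larsson syndrome, was about level. The 3 probes gave log2 fold changes of 0.17 (95% interval −0.10 to 0.44, limma adjusted p = 0.223), −0.17 (−0.47 to 0.14, adjusted p = 0.283) and −0.38 (−0.65 to −0.12, adjusted p = 0.0173). The brightest read 9.73, 9.67 and 9.80 in C28 and 9.72, 10.09 and 9.90 in JJ012. The probes disagree in sign, and that of the brightest turns to −0.02 when arrays are scaled by their medians. The brightest is annotated to one transcript of the gene and the others to a different one.

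**Figure D3:**
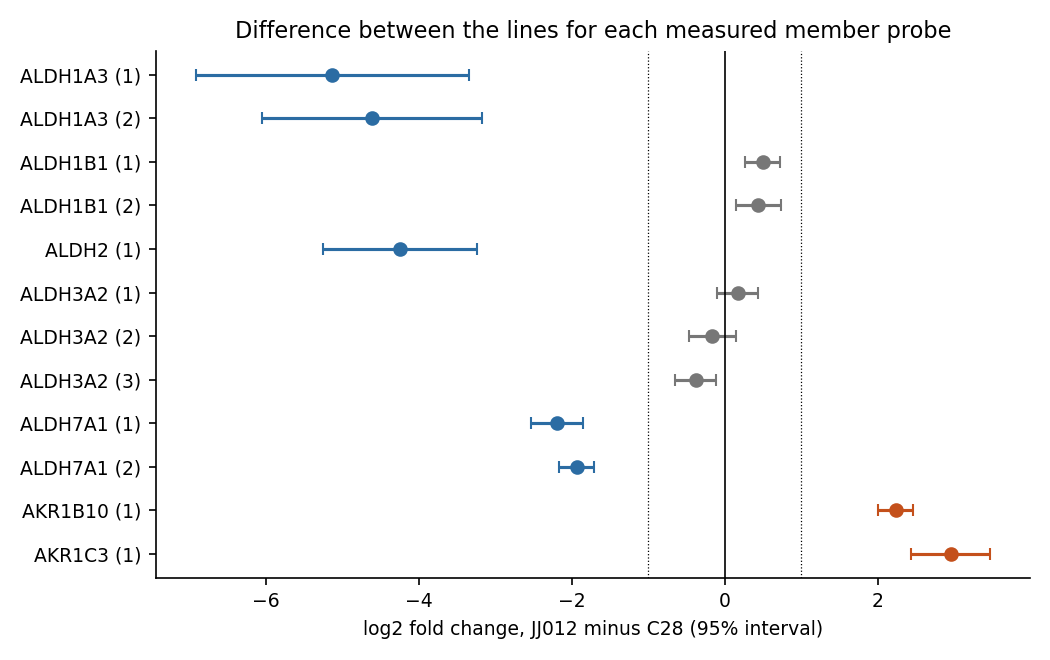
Fitted log2 fold change of each measured member probe, JJ012 minus C28 (x axis), with its 95% interval, where blue is called lower, orange called higher and grey not called, and dotted lines mark a 2-fold difference. The wide intervals of ALDH1A3 and ALDH2 contrast with the narrow one of ALDH7A1, and AKR1B10 is drawn at its fitted 2.24 although it was undetected in C28.

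AKR1B10, which reduces retinaldehyde and lipid aldehydes and is raised in several carcinomas, was detected in JJ012 alone. Its probe, ILMN_1672148, read 4.73, 4.63 and 4.78 in C28 and 6.91, 7.05 and 6.90 in JJ012. The C28 arrays were at background and the JJ012 arrays were low but detected, with no overlap. The means were 4.71 ± 0.08 and 6.95 ± 0.08 (SD, n = 3 each). Since C28 gives only a bound, AKR1B10 was at least 2.77-fold higher in JJ012 (limma adjusted p = 8.19e-07). Such a bound sets the mean of the bright line against, on each array of the other, the higher of the dimmest detected signal and the probe's own.

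AKR1C3 reduces weak androgens to testosterone and prostaglandins to F-type forms, and it was 7.76-fold higher in JJ012. Its probe, ILMN_1713124, read 6.54, 6.45 and 6.14 in C28 and 9.02, 9.85 and 9.12 in JJ012. It was low but detected on every C28 array and moderate on every JJ012 array, with replicate 2 the brightest. The means of 6.37 ± 0.21 and 9.33 ± 0.46 (SD, n = 3 each) gave a log2 fold change of 2.96 (SE 0.22, 95% interval 2.44 to 3.47, limma adjusted p = 1.06e-05). The single probe of AKR1C1, an enzyme that inactivates progesterone, was at background throughout, with 4.36, 4.41 and 4.50 in C28 and 4.44, 4.62 and 4.44 in JJ012. This probe, ILMN_1662507, was detected on no array and was not tested, so it does not show whether AKR1C1 RNA was present.

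A pair of further genes of the AKR1C cluster on chromosome 10, neither of them a member, read the same way as AKR1C3. AKR1C2, which inactivates dihydrotestosterone, read 5.23, 5.25 and 4.96 in C28 and 9.89, 10.65 and 9.95 in JJ012, at least 25.7-fold higher (limma adjusted p = 6.05e-07). AKR1C4, an enzyme of bile acid synthesis in liver, read 5.55, 5.61 and 5.47 against 9.74, 11.01 and 10.10, a log2 fold change of 4.74 (SE 0.28, limma adjusted p = 3.45e-06). In all 3 genes the JJ012 arrays stood in the same order, with replicate 2 highest, then 3, then 1. For AKR1C2 this holds for 1 of its 6 probes, and for AKR1C4 for 1 of its 2, the others being at background on all arrays. The order is not particular to the cluster, since ALDH3B1, CRABP2 and ABCC2, described below, had it as well. Of 18 genes called higher in the lists of related genes below, 10 were highest on JJ012 replicate 2, AKR1C2 and AKR1C4 among them. The genes of this cluster are related copies, so a probe may read RNA of a copy other than the one it is named for. Which of them, AKR1C1 included, gives the AKR1C2, AKR1C3 and AKR1C4 signals was not tested.

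Neighbouring genes of AKR1C3 outside the AKR1C family, MANCR and TUBAL3, were also higher in JJ012. The nearest measured neighbours on either side, in RefSeq order, were taken for each called member. For AKR1C3 these were MANCR, a long non-coding RNA, at least 13.1-fold higher and detected on 1 C28 array, AKR1C2, AKR1C4, and TUBAL3, a tubulin-like gene, at least 1.55-fold higher, and all 4 were called higher, TUBAL3 not without background correction. KLF6, a zinc finger factor on the far side of MANCR and named after its value was seen, was higher as well, by 2.19. Of the 4 neighbours of AKR1B10 on chromosome 7, none was called higher, and CALD1, which binds actin, was lower by −1.75. Across both higher members, 4 of 8 neighbours were called higher and 1 lower, beside 13.7% and 17.6% of all genes. Of the 4, MANCR, AKR1C2 and TUBAL3 passed the filter through JJ012 alone, so their direction follows from the filter. AKR1C2 and AKR1C4 may also read the same RNA.

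Of 12 neighbours of ALDH1A3, ALDH2 and ALDH7A1, 2 were called lower and 0 higher, beside 17.6% and 13.7% of all genes, so the share lower was near that background. Both lie beside ALDH1A3 on chromosome 15: LRRK1, a kinase gene, at −1.51, and CHSY1, a chondroitin synthase, at −1.10. The other neighbours of these 3 genes had log2 fold changes from −0.78 (LYSMD4) to 0.69 (ACAD10).

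**Figure D4:**
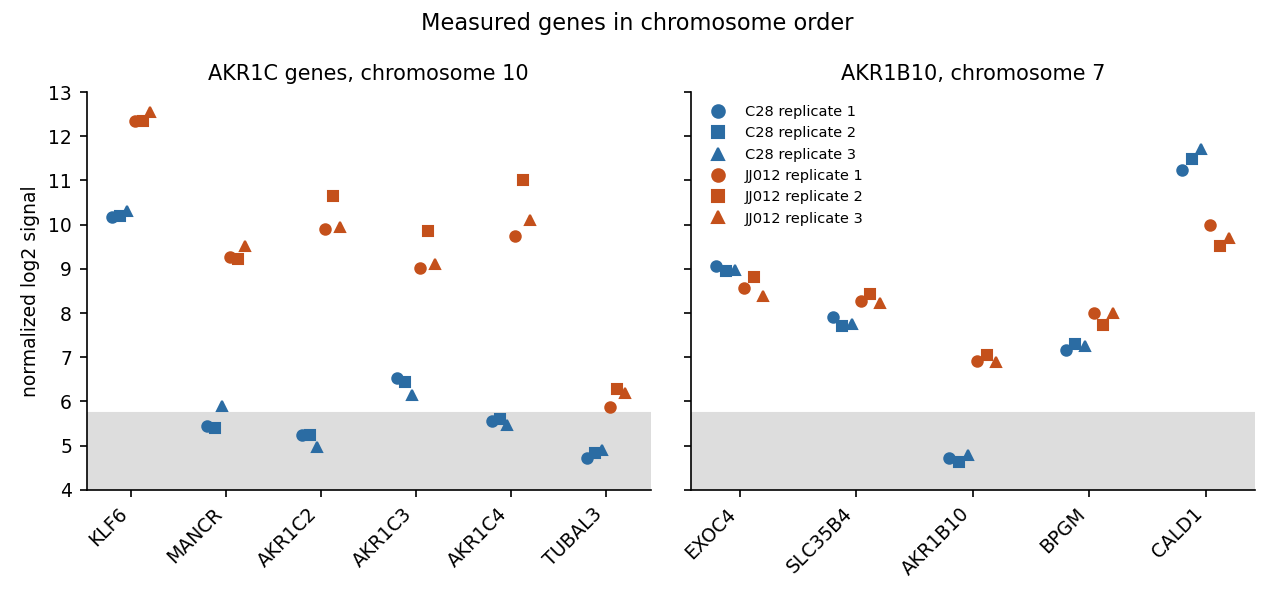
Normalized log2 signal on the 6 arrays (y axis) of measured genes around members, in chromosome order (x axis, not to scale), with the grey band below 5.73 as before. In the AKR1C region the JJ012 points lie above C28 for every gene drawn, while around AKR1B10 the 2 lines lie near each other or, for CALD1, JJ012 lies lower.

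The rest of both families was read from lists of related genes, in which each gene stands for its brightest measured probe. Of 13 other aldehyde dehydrogenases, 8 were measured, 1 was higher, 1 lower and 6 not called (25% called, median −0.55, or −0.38 with bounds, against 31.3% and −0.04 for all genes). ALDH3B1, which oxidises lipid aldehydes, read 6.32, 6.00 and 6.06 in C28 and 7.64, 8.43 and 7.75 in JJ012, a rise of 1.81 on the log2 scale (SE 0.21, limma adjusted p = 0.000102). ALDH18A1, which makes proline and ornithine precursors, was lower at −1.01 (SE 0.09, limma adjusted p = 2.28e-05), at the edge of 2-fold, and lost the call under 6 of 18 alternative settings, among them leaving out C28 replicate 1 or JJ012 replicate 3. ALDH4A1, of proline breakdown, lay just short, with means of 7.75 in C28 and 6.75 in JJ012, and was called under 7 of them, among them leaving out C28 replicate 2 or 3 or JJ012 replicate 1 or 3. The remaining values were −0.78 for ALDH1A2, the third retinaldehyde dehydrogenase, which was undetected in JJ012, −0.70 for ALDH9A1, −0.40 for ALDH16A1, −0.37 for ALDH5A1 and 0.12 for ALDH6A1.

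Of 12 other aldo-keto reductases, 10 had probes and 5 were measured, of which AKR1C2 and AKR1C4 were higher and 0 lower (40% called, median 0.53). AKR1C2 passed the filter through JJ012 alone, so its direction follows from the filter. AKR7A2 and AKR7A3, which reduce dialdehydes such as those of aflatoxin, had log2 fold changes of −0.25 and −0.16. AKR1D1, the steroid 5-beta-reductase known from liver, gave 0.53 and was not called. Its bright probe averaged 13.45 in C28 and 13.98 in JJ012, whereas a second probe of the gene was at background on all arrays.

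Among genes of retinoic acid transport, reception and breakdown, the largest differences were decreases. Of 18 genes, 15 had probes and 12 were measured, with 2 higher, 6 lower and 4 not called (66.7% called, median −1.32, or −0.82 with bounds, beside 31.3% of all genes). All 6 lower genes passed the filter through C28 alone, and RARRES2, called higher, through JJ012 alone, so their direction follows from the filter. Among probes detected on all 6 arrays, 1 gene of this list was called. CYP26B1, which breaks down retinoic acid, read 10.33, 10.46 and 10.46 in C28 and 7.28, 4.91 and 5.50 in JJ012, with 1 of 3 JJ012 arrays detected. It was at least 18.4-fold lower (fitted log2 fold change −4.52, SE 0.52, limma adjusted p = 9.81e-05). TGM2, a transglutaminase induced by retinoic acid, was detected on 2 JJ012 arrays and at least 20.6-fold lower (fitted log2 fold change −4.42, SE 0.57, limma adjusted p = 0.000188). Both follow the array order of ALDH1A3, with 10.3%, 1.04% and 2.16% of the C28 mean for CYP26B1 and 12%, 1.31% and 3.54% for TGM2. Without JJ012 replicate 1, CYP26B1 was at least 26.6-fold lower and TGM2 had a fitted value of −5.13, against −3.78 without replicate 2.

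Also lower, and named after their values were seen, were the retinol carrier RBP4 (at least 6.34-fold), its receptor STRA6 (at least 6.99-fold), RARRES1 (at least 2.68-fold) and CYP26A1 (at least 2-fold), each undetected in JJ012. The 2 genes called higher were CRABP2, which carries retinoic acid to the nucleus, by 1.70 on the log2 scale, and RARRES2, the precursor of chemerin, at least 1.92-fold. Without background correction CYP26A1 and RARRES2 lost their calls. Among alcohol and retinol dehydrogenases, 10 of 21 were measured and 1 was called (10%, median −0.08). This was DHRS3, which reduces retinaldehyde back to retinol, with 10.19, 10.37 and 9.88 in C28 and 7.57, 7.09 and 6.75 in JJ012, and its log2 fold change was −3.01 (SE 0.22, limma adjusted p = 8.09e-06). RDH10, which makes retinaldehyde from retinol, gave 0.15.

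Steroid and prostaglandin enzymes, which share substrates with AKR1C3, held 18 measured genes of 32 with probes, and 6 were higher, 1 lower and 11 not called (38.9% called, median 0.19). PTGDS, a prostaglandin D synthase, was at least 11.1-fold higher, and HSD17B2, which oxidises testosterone and oestradiol, at least 4.30-fold higher, both undetected in C28. These genes and HSD17B14, also called higher, passed the filter through JJ012 alone, so their direction follows from the filter. HSD17B6 was lower at −1.30 (SE 0.14, limma adjusted p = 6.83e-05). Of other carbonyl and polyol enzymes 9 of 9 with probes were measured, 2 higher, 2 lower and 5 not called (44.4% called, median 0.26). AOX1, an oxidase that also turns aldehydes into acids, read 5.02, 5.42 and 4.94 in C28 and 10.46, 10.42 and 10.39 in JJ012, at least 30.8-fold higher (limma adjusted p = 7.82e-08). AOX1 passed the filter through JJ012 alone as well. DHRS2 was higher by 1.27, and HAGH, of methylglyoxal removal, and CBR4 were lower at −1.66 and −1.08. The calls of HSD17B6, DHRS2 and CBR4 were lost without background correction, with normexp and with the authors' values, and CBR4 also lost its call without JJ012 replicate 3 (−0.97).

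AKR1B10 and AKR1C genes are known targets of NRF2, the factor that turns on antioxidant enzymes. Of its regulators and other targets 21 of 21 with probes were measured, 5 higher, 0 lower and 16 not called (23.8% called, beside 31.3% of all genes, median 0.18). ABCC2, an export pump, was at least 8.11-fold higher. HMOX1, a heme oxygenase, read 7.43, 7.02 and 7.06 in C28 and 10.59, 9.91 and 10.39 in JJ012, a rise of 3.13 on the log2 scale (SE 0.19, limma adjusted p = 3.78e-06). The other 3 called genes, named after their values were seen, were SLC7A11 (at least 2.75-fold), GSR (1.24 on the log2 scale) and GCLM (1.09). ABCC2 and SLC7A11 passed the filter through JJ012 alone, so their direction follows from the filter. NQO1, a widely used NRF2 target, gave −0.21, NFE2L2, which encodes NRF2, −0.31, and its inhibitor KEAP1 0.62, none of them called. Without background correction SLC7A11 lost its call, and with median scaling GCLM did.

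**Figure D5:**
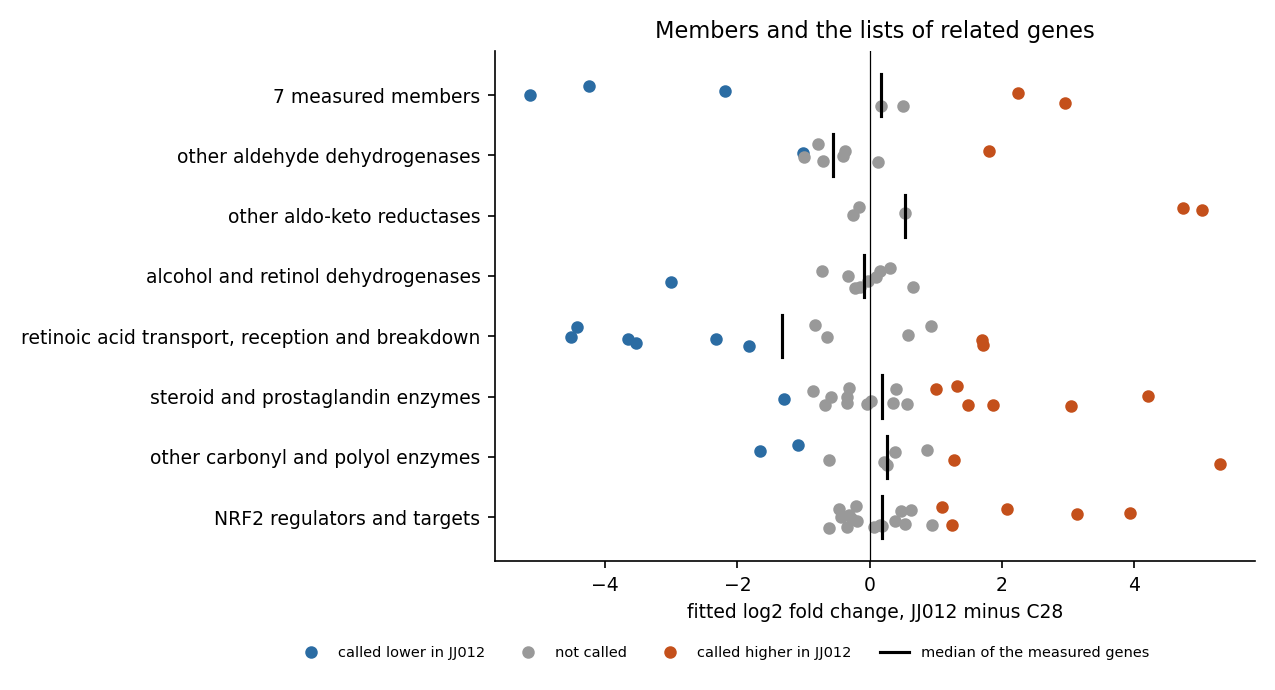
Fitted log2 fold change, JJ012 minus C28 (x axis), of each measured gene in the member set and in the 7 lists of related genes (rows), coloured by call, with a black bar at the median. The members spread from −5.14 to 2.96, and the 2 aldo-keto reductases far to the right are AKR1C2 and AKR1C4. The retinoic acid list has 6 of 12 genes called lower, all 6 of which passed the filter through C28 alone.

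Markers of other cell types also differed between the lines. EPCAM, KRT8 and KRT18 were detected on all C28 arrays, and CDH1, KRT5 and KRT14 on no array. KRT18 was detected on all JJ012 arrays too (log2 fold change −0.24, not called), KRT8 on 2 and EPCAM on 1. The summed level of the 6 epithelial markers was 1190 to 1330 in C28 and 154 to 291 in JJ012 (background-corrected linear signal). KRT8 (mean log2 signal 9.91 and 6.46) gave most of the C28 sum. The sum of 5 smooth muscle markers was 8570 to 10400 against 88.9 to 1100, with MYH11, DES and CNN1 undetected on all arrays and ACTG2 (mean log2 signal 13.19 and 8.10) giving most of the sum. The blood list was at 630 to 806 against 131 to 250 over 5 of 6 markers, with PTPRC, CD3E and LYZ undetected. Of the others CD14 averaged 9.38 in C28 and 6.66 in JJ012 and HBA1 6.11 and 6.52, so the lower sum is that of CD14. The endothelial list was at 43.5 to 60.3 against 91.9 to 131 over 5 markers, with PECAM1 alone detected. The cartilage list was at 571 to 675 against 305 to 395 over 8 markers. The part of these differences in the results above was not tested.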

How the data were processed

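Total RNA of C28 and JJ012 cells was measured on 3 Illumina arrays per line. The authors deposited the mean intensity of 47231 probes on a linear scale, with no background subtraction or scaling. For every probe on every array they also deposited a fraction headed as detection, which was read as 1 minus the detection p-value because bright probes are at 1. A further table that the authors deposited holds log2 values centred on each probe's median, and the C28 arrays have medians of −0.001, −0.001 and 0, the JJ012 arrays of −0.003, 0.004 and 0.003. Comparison with the intensities gave its scale, centring and direction, its normalization between arrays stays unknown, and it served as an alternative only. The sources used here do not give the scanner software.

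The neqc function (limma 3.58.1, R 4.3.3) subtracted background and applied quantile normalization, the offset being 16 and the negative controls being inferred from detection values. limma's lmFit and eBayes compared JJ012 with C28 over 19384 measured probes, with Benjamini-Hochberg adjustment over all of them; the code was tested on simulated data. A gene stands for its brightest measured probe. Bounds for probes detected on part of a line's arrays were added after seeing the data. Platform symbols name 1 gene for 30113 probes, several for 8 and none for 17110, and 30074 matched RefSeq (GRCh38.p14), which gave names, gene order and promoters, aligned with Biopython 1.88. Motifs were searched on both strands. Replicate numbers did not pair the arrays: same-numbered arrays deviated from their line means with correlations of −0.04, −0.07 and 0.05.

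The members and lists were chosen with earlier results of these data known. The text names all members, the measured genes of both families, the nearest measured neighbours of called members, and the 2 largest called changes up and down in each other list. Alternatives were another or no background correction, median scaling, cyclic loess, the authors' values, other filters, array weights, a replicate block, averaging over a gene's probes, and arrays left out. The small number of arrays limits the precision.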

Additional observations from a re-analysis of the deposited data

How the results depend on the processing

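Under 18 alternative settings, the 7 measured members kept their direction of call, or lack of one, in all 123 values that could be computed. Log2 fold changes ranged from −6.77 to −3.98 for ALDH1A3, −5.14 to −2.96 for ALDH2, −2.46 to −2.05 for ALDH7A1, 1.05 to 2.33 for AKR1B10, 2.16 to 3.48 for AKR1C3, 0.26 to 0.56 for ALDH1B1 and −0.13 to 0.36 for ALDH3A2. Of 991 values of other named genes, 944 kept their call, 40 lost it and 7 gained it. Testing only probes detected on all 6 arrays takes ALDH1A3, ALDH2 and AKR1B10 out by construction, leaving 1 member probe higher and 2 lower and 1 member gene higher and 1 lower. That setting called 1635 probes higher and 1500 lower, with 3 NRF2 genes, 1 other aldo-keto reductase, 1 retinoic acid gene and 4 steroid and prostaglandin enzymes. No background correction called 1551 probes higher and 1777 lower, and the authors' values 1730 and 1969. Normexp without negative controls called 2057 lower. Each of these 3 called 1 other aldehyde dehydrogenase (2 in the reported fit), 2 carbonyl and polyol enzymes (4) and 4 steroid and prostaglandin enzymes (7). Leaving out 1 array gave 1 to 3 other aldehyde dehydrogenases, the lowest without C28 replicate 1. Median scaling moved the median of all probes from −0.01 to −0.19 and called 2147 probes higher and 3851 lower, against 2698 and 3088. With a replicate block, ALDH1A3 stayed at −5.14 (limma adjusted p = 0.000562) and counts stayed at 3 member genes lower and 2 higher, and the block changed no member's call; the arrays share only a number. The cause of these changes was not tested apart from the filter. TUBAL3, DHRS2, RARRES2, HSD17B6, HSD17B14 and CBR4 lost their calls without background correction, with normexp and with the authors' values. PTGS2, which lay at the edge of 2-fold, lost its call under 10 settings. A line that is undetected gives only a bound.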
